A study of Schizosaccharomyces pombe with 16 samples.

Results

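Phosphate acquisition in the fission yeast Schizosaccharomyces pombe was followed through 5 of the 7018 transcripts measured: pho1 (SPBP4G3.02), pho84 (SPBC8E4.01c), tgp1 (SPBC1271.09), pho7 (SPBC27B12.11c) and csk1 (SPAC1D4.06c). They were chosen by name for their place in the phosphate regulon. All 5 passed the filter on low values, a mean of at least 1 CPM, in every comparison. The study asked which RNAs the CCCH-type tandem zinc-finger RNA-binding protein Zfs1 binds, and how transcript levels change without it.

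RNA that copurified with Zfs1 was sequenced as Zfs1 IP libraries from strain FR1401 (zfs1-TAP::kanMX6 h-), in which Zfs1 carries a TAP tag, together with the matching total RNA, called Zfs1 input. The mock control was GFP IP and GFP input from strain FR1424 (leu1Δ::[Pnmt1-gfp-TAP-Tnmt1 ura4+] ura4-D18 h+), which makes GFP-TAP from the nmt1 promoter, and differs from FR1401 also in mating type and at leu1 and ura4. Each of these 4 groups had 3 experiments. RNA-Seq compared the zfs1Δ strain FR434 with the wild type (WT) strain PN4, in 2 experiments each, and further alleles of these strains are not given in the sources used here. All cells grew exponentially in EMM, a defined minimal medium, at 25°C, and no phosphate starvation is described.

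In fission yeast, phosphate is taken up across the plasma membrane by transporters after secreted acid phosphatase has freed it from organic compounds. The genes for this work are held low in phosphate-rich medium by transcription of long non-coding RNAs from upstream start sites across their promoters, and are switched on by the transcription factor Pho7 when phosphate runs short. Pho1 is the secreted acid phosphatase, Pho84 a phosphate transporter and Tgp1 a transporter of glycerophosphocholine, while Csk1 is a Cdk-activating kinase whose loss is known to raise pho1 expression. Zfs1, like its animal relative tristetraprolin, binds an AU-rich nonamer in RNA, and such binding usually shortens the life of an mRNA.

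The sequences that bear on both regulators come first. The Zfs1 nonamer, TTATTTATT with T for U, was absent from the sense strand of all 5 annotated transcripts, whereas 11.3% of 5104 annotated mRNAs held at least 1 copy. The annotated csk1 transcript has a 3′UTR of 0 bases, so no 3′UTR was searched for csk1. Each of the 5 held 4 or 5 copies of the shorter core ATTTA. With 1 base of the nonamer changed, which 65.6% of the mRNAs showed, pho1 had 1 match, pho84 had 2, tgp1 had 1, csk1 had 1 and pho7 had 0. The pho1 match is shown because it lay in the 3′UTR, at chrII:4449015-4449023 (ASM294v3, plus strand). It differed from the nonamer by A3C, with positions counted from 1 at the 5′ end of the nonamer. The capitals mark the 9 bases.
pho1 3′UTR: ctttgcaacgTTCTTTATTtttaatagat

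For Pho7, the letters TCGNNNNTTNAA were searched on both strands from 250 bases before to 50 bases after each annotated start. Of 5103 such windows, 6.66% held them. The pho1 window held 2 matches, the tgp1 window held 1, and the windows of pho84, pho7 and csk1 held 0. The 3 matches are shown because pho1 was called lower in the zfs1Δ mutant and tgp1 was not. They started at −187 and −155 from the pho1 start and at −192 from the tgp1 start, all on the strand of the gene, and the capitals mark the 12 letters searched.
pho1 promoter, −187: gggaatagTCGCTGCTTGAAacatccgg
pho1 promoter, −155: agttttatTCGGAAATTAAAaacaagtt
tgp1 promoter, −192: tttttcctTCGGACATTCAAatcagtaa
A match of letters is a description and not a measured binding site.

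pho84 (chrII:4444101-4446200, plus strand, 1 exon) and pho1 (chrII:4447506-4449053, plus strand, 1 exon) are neighbours, with pho84 ending 1305 bases before pho1 begins. tgp1 (chrII:350310-352411, minus strand) and pho7 (chrII:1345112-1347974, minus strand) lie elsewhere on chromosome II. csk1 (chrI:648301-649565, minus strand) has 3 exons. The coordinates are those of RefSeq ASM294v3, and the values rest on an older PomBase annotation, whose transcript ends may differ. The pho7 transcript had the longest 5′UTR of the group, at 509 bases, against 51 bases for pho1, 151 for pho84, 42 for tgp1 and 172 for csk1.

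Before the members are compared, some facts of the libraries matter. The zfs1 transcript itself had 6168 and 5866 normalized counts in the 2 libraries labelled zfs1Δ, against 10098 and 10660 in WT, so it was lower but not absent (log2 fold change −0.79 ± 0.05 SE, limma adjusted p = 6.5e-47). The table gives no position within a transcript, so it does not show which part of the gene was missing. Summed normalized counts were 42446075 to 47945097 per RNA-Seq library. In RIP-Seq they were 8042875 to 15701389, apart from the Zfs1 input of experiment 1, which summed to 72878501 and in which ribosomal RNA took 72.1%. Ribosomal RNA took 34.7% of the GFP input of experiment 1 and at most 5.87% of any other RIP-Seq library.

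pho84 and pho1 were strongly lower in zfs1Δ cells. pho84, the phosphate transporter, had 22887 and 29309 normalized counts in zfs1Δ, against 72520 and 73790 in WT. pho1, the acid phosphatase, had 12434 and 15572 in zfs1Δ, against 34152 and 36319 in WT. For both genes the groups were far apart, and in both the first zfs1Δ experiment was the lower one.

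pho84 fell 2.82-fold, with a log2 fold change of −1.50 ± 0.08 (SE, n = 2 each, limma adjusted p = 8.6e-83). pho1 fell 2.53-fold, with a log2 fold change of −1.34 ± 0.06 (SE, n = 2 each, limma adjusted p = 5.9e-96). These log2 changes are on the log2(value + 1) scale, as are all those below. By experiment they were −1.66 and −1.33 for pho84, and −1.46 and −1.22 for pho1. Of 5177 transcripts tested, 13.7% were called lower and 30.9% higher (1600 higher and 710 lower), a split that became 1360 higher and 1441 lower with median centring, and 1156 and 1683 with libraries scaled to equal totals without rRNA. Counted from the lowest fold change pho84 had rank 30 and pho1 rank 33. With 2 experiments a group, the spread behind these p-values is drawn mainly from the other transcripts; without a mean-variance trend the adjusted p was 7.3e-12 for pho84 and 1.5e-11 for pho1.

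**Figure D1:**
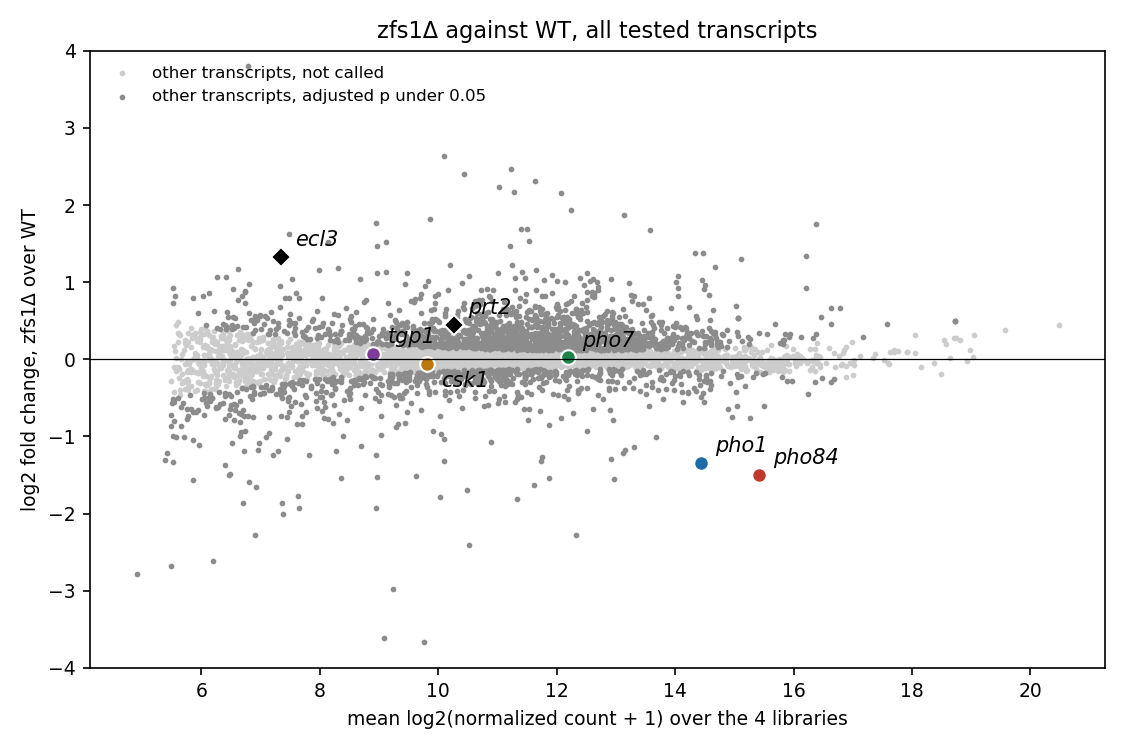
Each point is 1 transcript, with its mean level over the 4 RNA-Seq libraries on the x axis (log2 of normalized count + 1) and its log2 fold change, zfs1Δ over WT, on the y axis; dark grey points passed limma's adjusted p threshold of 0.05. pho84 (−1.50) and pho1 (−1.34) lie far below the bulk at high levels, tgp1, pho7 and csk1 lie near 0, and the black diamonds are ecl3 (1.33) and the transcript annotated as prt2 (0.45); 1 transcript lies outside the plotted range.

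The other 3 members were not called. tgp1, the glycerophosphocholine transporter, had 492 and 484 normalized counts in zfs1Δ, against 465 and 464 in WT. The zfs1Δ values lay just above those of WT, by a log2 difference of 0.07 ± 0.08 (SE, limma adjusted p = 0.53), which is close to the median of all transcripts, 0.05. Of the 3 genes that Pho7 is known to activate in starved cells, pho84 and pho1 were therefore called lower and tgp1 was not called; the difference between them was not tested.

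pho7 had 4715 and 4710 normalized counts in zfs1Δ, against 4543 and 4722 in WT. The groups overlapped and the log2 fold change was 0.02 ± 0.05 (SE, limma adjusted p = 0.74). csk1 had 856 and 892 in zfs1Δ, against 902 and 923 in WT. The csk1 groups did not overlap, but the log2 fold change of −0.06 ± 0.07 (SE) was not called (limma adjusted p = 0.49). When the libraries were scaled to equal totals without rRNA, csk1 passed the threshold at −0.15 (limma adjusted p = 0.037), while pho84 and pho1 were called lower in every alternative that could be tested.

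Per kilobase of annotated transcript, pho84 was the most abundant member in WT, at 34836 ± 427 normalized counts per kb (SD, n = 2). It was followed by pho1 at 22762 ± 990, pho7 at 1618 ± 44.2, csk1 at 835 ± 13.3 and tgp1 at 221 ± 0.212. The csk1 length used here holds no annotated 3′UTR. Each step in this order was larger than the spread between the WT libraries. In zfs1Δ the order was the same, with pho84 at 12428 ± 2162 and pho1 at 9046 ± 1434. The groups did not overlap, and per kilobase pho1 stood at 0.737 and 0.721 of pho84 within the 2 zfs1Δ libraries.

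**Figure D2:**
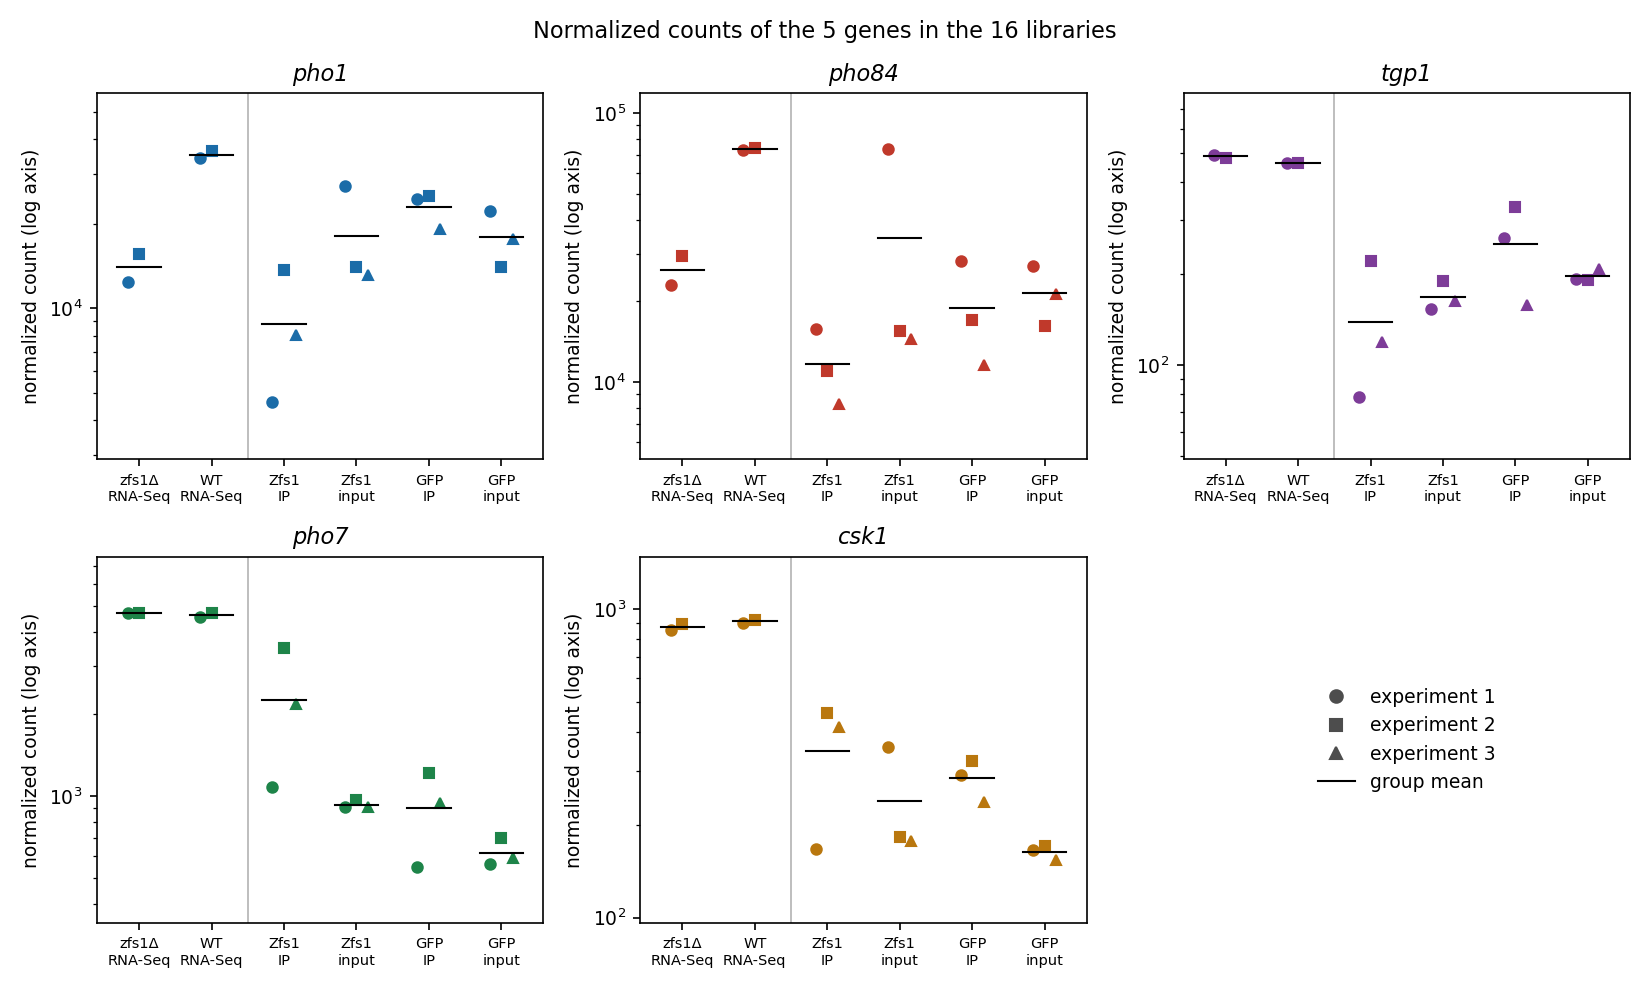
Normalized counts (log axis, as deposited) of pho1, pho84, tgp1, pho7 and csk1 in the 16 libraries, with 1 symbol per experiment and a bar at each group mean; the grey line parts the RNA-Seq table from the RIP-Seq table, which were normalized separately. pho84 and pho1 are lower in both zfs1Δ libraries than in both WT libraries, pho7 is higher in each Zfs1 IP than in any Zfs1 input, and the Zfs1 input of experiment 1 stands apart for pho84 at 73364.

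The ratio of pho84 to pho1 within 1 library does not depend on how libraries are scaled. It was 1.84 and 1.88 in zfs1Δ, against 2.12 and 2.03 in WT, so the 2 mRNAs were reduced to nearly the same degree, pho84 slightly more. In the GFP input libraries it was 1.21, 1.15 and 1.21. In the Zfs1 input libraries it was 2.70, 1.105 and 1.104, and in the Zfs1 IP libraries 3.38, 0.80 and 1.03. The first Zfs1 experiment therefore stood apart in input and IP alike, and it did so in the balance of these mRNAs as well as in its rRNA. What set this experiment apart was not tested.

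The 2 measured non-member transcripts around pho84 and pho1 were higher in zfs1Δ. prt2 is the long non-coding RNA that starts upstream of pho84 on the same strand and is known to repress it. Its older identifier, SPBC8E4.02c, had 1377 and 1496 normalized counts in zfs1Δ, against 1025 and 1075 in WT, and rose by a log2 fold change of 0.45 ± 0.06 (SE, limma adjusted p = 1.3e-11). In the present annotation prt2 overlaps 1870 bases of pho84 on the same strand, and the model behind the deposited value may be shorter, so the share of its reads that belongs to either transcript was not tested. On the other side of prt2, 2273 bases upstream of pho84 and on the opposite strand, lies ecl3, a small gene known for extending chronological lifespan when overexpressed. ecl3 had 217 and 303 normalized counts in zfs1Δ, against 91.4 and 112 in WT, a rise of 1.33 ± 0.13 on the log2 scale (SE, limma adjusted p = 4.0e-24).

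**Figure D3:**
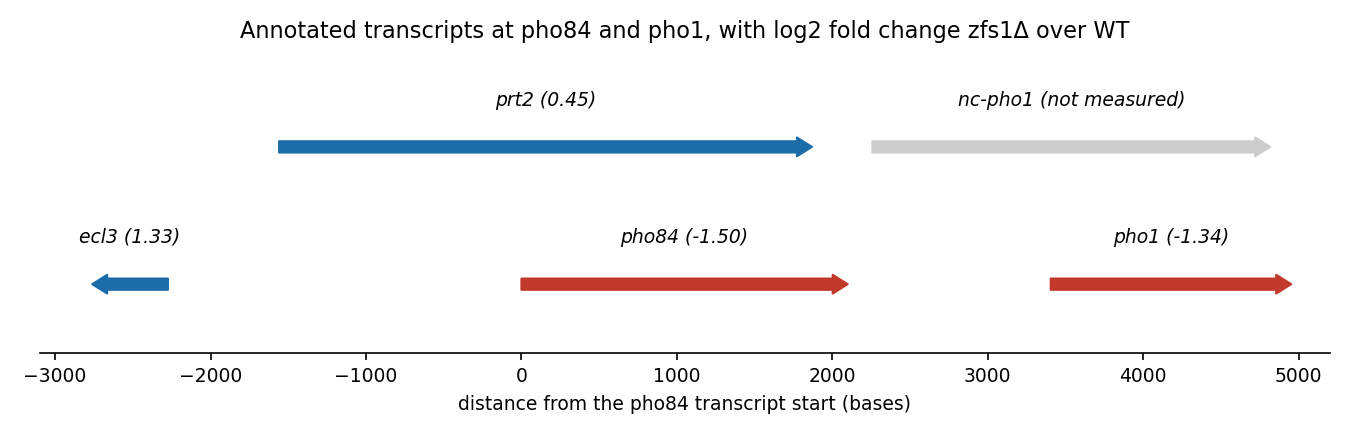
Annotated transcripts at pho84 and pho1 (RefSeq ASM294v3), drawn to scale as arrows in the direction of transcription against the distance in bases from the pho84 start, with the log2 fold change zfs1Δ over WT in parentheses. Red marks transcripts lower in zfs1Δ (pho84 −1.50, pho1 −1.34), blue those higher (prt2 0.45, measured under its older identifier, and ecl3 1.33), and grey the lncRNA nc-pho1, for which no value was used here.

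nc-pho1, also called prt, overlaps 1413 bases of pho1 on the same strand and had no row of its own that could be matched, so its reads cannot be told apart from those of pho1. nc-tgp1 had no row of its own that could be matched either. It overlaps only 77 of the 2102 bases of tgp1 in the present annotation, so there the limit covers reads from that stretch alone. Of 20 annotated neighbours of the 5 genes, 9 were found in the files, and 8 of them are not members. Near tgp1, SPBC1271.10c, which overlaps the end of tgp1 on the opposite strand, rose by 0.25 ± 0.05, and the lncRNA SPNCRNA.1343 was lower by −0.22 ± 0.09 (log2, SE, limma adjusted p = 1.2e-05 and 0.029). Near pho7, SPBC27B12.12c rose by 0.56 ± 0.06 and cbp4 was lower by −0.18 ± 0.06 (log2, SE, limma adjusted p = 1.9e-18 and 0.0096). Near csk1, pis1 and rtf2 rose by 0.16 ± 0.05 and 0.34 ± 0.06 (log2, SE, limma adjusted p = 0.0074 and 1.7e-08).

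In the RIP-Seq experiments, pho7 was the member with the highest Zfs1 IP level relative to input. It had 1078, 3486 and 2182 normalized counts in the Zfs1 IP of experiments 1 to 3, against 907, 968 and 910 in the Zfs1 input. Every IP value was above every input value. The share of all transcripts whose groups were apart in this way is not given here, for this or any other comparison. In the mock control pho7 had 547, 1216 and 945 in the GFP IP, against 564, 700 and 590 in the GFP input, and there the groups overlapped. The mean log2 ratio was 1.12 ± 0.81 in the Zfs1 IP and 0.48 ± 0.45 in the GFP IP (SD, n = 3 each).

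Neither enrichment of pho7 was called as deposited (limma adjusted p = 0.29 for Zfs1 and 0.31 for GFP). The deposited scaling mattered for this result. The median IP over input log2 ratio of all transcripts was −1.50 in Zfs1 experiment 1, against 0.14 and 0.10 in experiments 2 and 3, and experiment 1 is the one whose input was rich in rRNA; the part of rRNA in this shift was not tested. The median ratio of all tested transcripts was then subtracted in each experiment. The pho7 ratios so obtained were 1.75, 1.71 and 1.16 in the Zfs1 IP and 0.28, 0.41 and 0.67 in the GFP IP, without overlap.

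The fit with median centring differs from this, because it centred each library on its own median transcript. In that fit pho7 was called higher in the Zfs1 IP, at 1.34 (limma adjusted p = 6.6e-04). Its Zfs1 enrichment exceeded its GFP enrichment by 0.89 (limma adjusted p = 0.019). Without experiment 1 it was called in the Zfs1 IP also as deposited, at 1.55 (limma adjusted p = 3.6e-07), where 36.2% of 5901 transcripts were called higher and 28% lower, but the difference from GFP was then not called. These calls are to be read against their background. Under median centring 28.4% of 5929 transcripts were called higher and 35.3% lower in the Zfs1 IP, and 20.3% of 5933 were called higher and 26.6% lower in the Zfs1 against GFP comparison.

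csk1 had 167, 461 and 415 normalized counts in the Zfs1 IP, against 357, 183 and 178 in the Zfs1 input. Experiment 1 went down and experiments 2 and 3 went up. In the mock control csk1 had 290, 322 and 238 in the GFP IP, against 165, 170 and 154 in the GFP input, so all 3 GFP IP values were above all GFP inputs. The mean log2 ratio was 0.49 ± 1.36 in the Zfs1 IP and 0.78 ± 0.15 in the GFP IP (SD, n = 3 each), and neither was called (limma adjusted p = 0.64 and 0.20). With median centring csk1 was called higher in the Zfs1 IP, at 0.71 (limma adjusted p = 0.030), where 28.4% of 5929 transcripts were called higher. The csk1 difference from GFP was not called under any scaling.

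pho84 and pho1, the members that fell in zfs1Δ, had Zfs1 IP over input ratios below 0 in 3 of 3 experiments. Ratios below 0 were common as deposited, with a median log2 fold change of −0.44 over all 5929 transcripts. Counted from the lowest, pho84 had rank 1643 and pho1 rank 1790. The share of all transcripts with 1 direction in 3 of 3 experiments is not given here, for this or any other comparison. pho84 had 15747, 10968 and 8270 normalized counts in the Zfs1 IP, against 73364, 15458 and 14469 in the Zfs1 input. Each IP was below its own input, although the group ranges overlapped. In the mock control pho84 had 28179, 17027 and 11551 in the GFP IP, against 27007, 16094 and 21283 in the GFP input, with no common direction. Its mean log2 ratio was −1.17 ± 0.92 in the Zfs1 IP and −0.25 ± 0.55 in the GFP IP (SD, n = 3 each), and neither was called (limma adjusted p = 0.26 and 0.78).

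pho1 had 4654, 13716 and 8016 normalized counts in the Zfs1 IP, against 27194, 13985 and 13104 in the Zfs1 input. In the mock control it had 24399, 25046 and 19150 in the GFP IP, against 22281, 14019 and 17638 in the GFP input. pho1 was thus lower in the Zfs1 IP than in its input in 3 of 3 experiments, and higher in the GFP IP than in its input in 3 of 3. In Zfs1 experiment 2 the log2 ratio was −0.028, and with equal totals without rRNA the GFP IP mean turned to −0.094. The ratios averaged −1.09 ± 1.30 for Zfs1 and 0.36 ± 0.41 for GFP (log2, SD, n = 3 each), and their difference of −1.46 was not called as deposited (limma adjusted p = 0.19).

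With median centring pho84 and pho1 were called lower in the Zfs1 IP, at −0.95 and −0.87 (limma adjusted p = 0.0076 and 0.015), where 35.3% of 5929 transcripts were called lower. pho1 was then also lower in the Zfs1 than in the GFP comparison, at −1.21 (limma adjusted p = 0.014), while pho84 was not called there. In that comparison 26.6% of 5933 transcripts were called lower. Median centring without experiment 1, a setting added after the data were seen, kept pho84 at −0.98 (limma adjusted p = 0.011), pho7 at 1.23 and csk1 at 0.94 (limma adjusted p = 3.1e-05 and 8.3e-04) among the calls for the Zfs1 IP, but not pho1; 30.7% of 5901 transcripts were called higher and 37.8% lower there. In that setting 0 members were called between Zfs1 and GFP, where 1209 of 5919 transcripts were called higher and 1457 lower.

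tgp1 showed no common direction. It had 78.1, 220 and 119 normalized counts in the Zfs1 IP, against 152, 189 and 162 in the Zfs1 input, and 261, 331 and 158 in the GFP IP, against 192, 191 and 207 in the GFP input. Both pairs of groups overlapped. Its mean log2 ratios of −0.40 ± 0.59 for Zfs1 and 0.28 ± 0.60 for GFP (SD, n = 3 each) were not called in the fits (limma adjusted p = 0.71 and 0.69), and no alternative called it.

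As deposited, then, 0 of the 5 members were called by limma in the Zfs1 IP, where 9.6% of 5929 transcripts were called higher and 10.6% lower. In the GFP IP 0 of 5 were called, where 11.1% of 5887 were called higher and 7.3% lower (651 and 430), a split that became 602 and 231 (10.2% and 3.92%) with median centring, and 208 and 883 (3.53% and 15%) with equal totals. In the comparison of the enrichments 0 of 5 were called, where 9.86% of 5933 were called higher and 11.3% lower. At an unadjusted p under 0.05 the count was again 0 of 5 in each of these comparisons. ecl3, the neighbour of pho84, had 2027, 3014 and 2386 normalized counts in the Zfs1 IP, against 179, 42.4 and 53.4 in the Zfs1 input, a log2 fold change of 5.02 ± 0.70 (SE, limma adjusted p = 2.1e-10). SPBC27B12.12c, 2884 bases upstream of pho7, was called too, at 2.57 ± 0.76 (SE, limma adjusted p = 0.0079), and cbp4, on the other strand next to pho7, was lower at −2.42 ± 0.71 (SE, limma adjusted p = 0.0072). Leaving out experiment 2 or 3 ended the calls of these 3 neighbours, and 37 and 40 transcripts were called in all then.

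**Figure D4:**
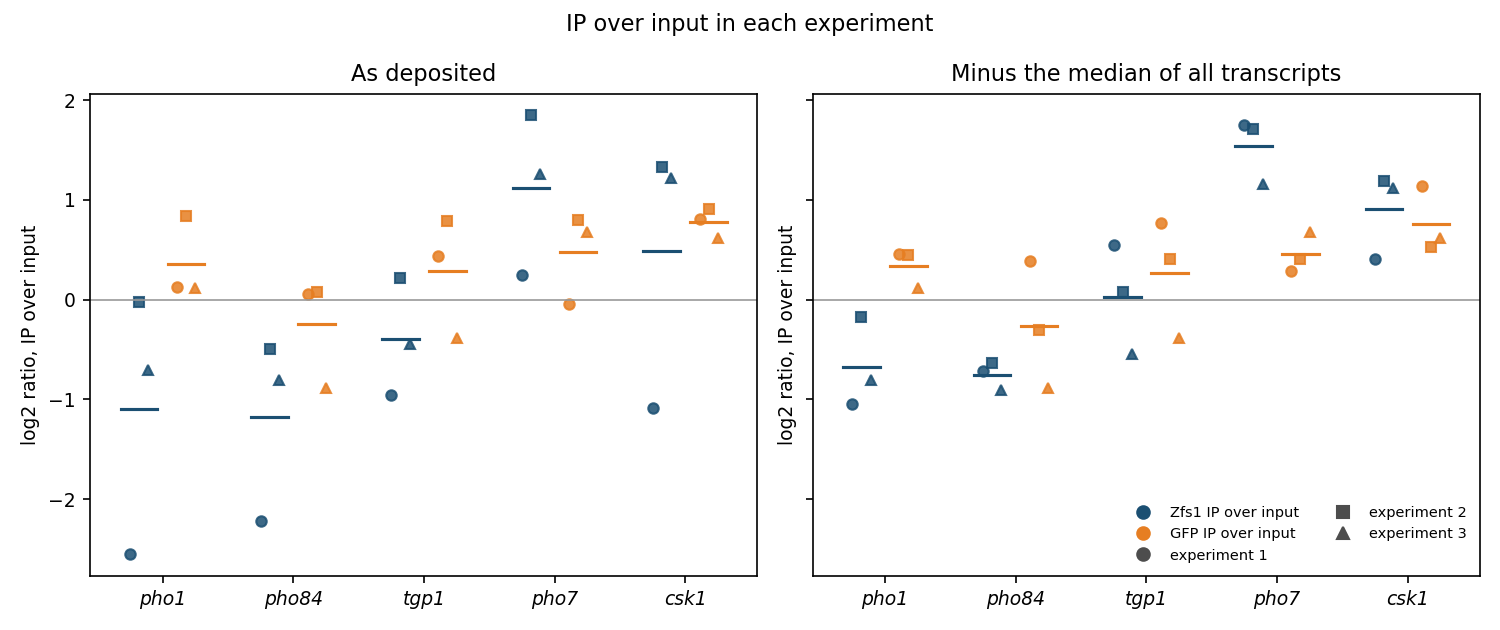
Log2 ratio of IP over input for the 5 genes in each experiment, for Zfs1 (blue) and the GFP mock control (orange), with 1 symbol per experiment and a bar at the mean of 3; the left panel uses the deposited values and the right panel subtracts the median ratio of all tested transcripts in that experiment. On the right pho7 lies at 1.16 to 1.75 in the Zfs1 IP and at 0.28 to 0.67 in the GFP IP, and pho1 is below 0 in the Zfs1 IP and above 0 in the GFP IP in all 3 experiments.

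Ratios between members within 1 library are free of scaling, but each mixes the changes of both genes and is not the enrichment of either. They were examined after the values had been seen, for all 10 pairs of members. Relative to pho1, pho7 was enriched in the IP over input by 2.80, 1.88 and 1.97 for Zfs1 and by −0.18, −0.04 and 0.56 for GFP on the log2 scale. csk1 relative to pho1 was enriched by 1.45, 1.36 and 1.93 for Zfs1 and by 0.68, 0.08 and 0.51 for GFP. In 4 of the 10 pairs the Zfs1 and GFP experiments did not overlap. They were pho7 with each of pho1, pho84 and tgp1, and csk1 with pho1. The pairs share genes and are not separate results, and the share over pairs of other transcripts is not given here. The exact two-sided permutation test gave p = 0.1 for these 4, the smallest value that 3 against 3 experiments allow, and 0.25 after adjustment over the 10 pairs.

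Between the strains, 0 of the 5 members were called in the Zfs1 input against the GFP input, where 0.102% of 5893 transcripts were called higher and 0.0679% lower, and 0 of 5 had an unadjusted p under 0.05 (limma). pho7 was nevertheless above the GFP inputs in each of the 3 Zfs1 inputs, by 0.59 ± 0.11 on the log2 scale (SD, n = 3, limma adjusted p = 0.84). The SDs here pair inputs by experiment number, which the sources used here do not say is shared between the strains. Minus the median of all transcripts, which was 1.17 in experiment 1, the pho7 differences were −0.49, 0.38 and 0.60, without a common direction. Without experiment 1 the pho7 difference as deposited was 0.55 and was called (limma adjusted p = 0.023), in a fit where 14.4% of 5895 transcripts were called higher and 6.16% lower. With the replicate number as a block 58 transcripts were called in place of 10, and still 0 members. tgp1 was lower in every Zfs1 input than in any GFP input, at −0.23 ± 0.19 (log2, SD, n = 3), and was not called (limma adjusted p = 0.85). csk1 was higher in every Zfs1 input than in any GFP input, at 0.47 ± 0.55 (log2, SD, n = 3), and was not called either (limma adjusted p = 0.84). The share of all transcripts whose inputs were apart in this way is not given here.

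The members did not follow 1 common pattern over the 12 RIP-Seq libraries. On median-centred log2 values, pho1 and tgp1 had a Pearson r of 0.80 and pho7 and csk1 of 0.76, while pho7 and pho84 had −0.95. IP and input libraries share an extract and a scaling, and the correlations are descriptions only. Among 4880 transcripts compared, those most like pho7 were knh4 (r = 0.99) and bub1 (r = 0.98), where bub1 encodes a spindle checkpoint kinase. Those most like pho84 were cat1 (r = 0.97), a transporter of basic amino acids, and man1 (r = 0.97), which encodes a nuclear membrane protein. Those most like csk1 were sld3 (r = 0.97), a DNA replication initiation factor, and tyr1 (r = 0.95). For pho1 they were SPBPB7E8.01 (r = 0.96) and vps66 (r = 0.95), and for tgp1 SPNCRNA.824 (r = 0.92) and SPCC18B5.05c (r = 0.88).

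Further genes of phosphate handling had smaller fold changes than pho84 and pho1 in zfs1Δ. Of 10 measured genes of phosphate transport, storage and release, 6 were called higher and 1 lower in zfs1Δ, with a median log2 fold change of 0.23, against 30.9% and 13.7% of all 5177 transcripts and a median of 0.05. With median centring and with equal totals the list had 6 called higher and 4 lower, where 26.3% and 22.3% of all transcripts were called higher and 27.8% and 32.5% lower. The polyphosphate polymerase subunit vtc4 rose by 0.49, nrf1 by 0.37, and pqr1, which encodes a ubiquitin ligase that restrains phosphate uptake, by 0.49 (log2, limma adjusted p = 4.3e-17, 9.6e-12 and 9.9e-19). pho842 was the 1 gene called lower, at −0.33 (limma adjusted p = 4.9e-07). pho4, another acid phosphatase gene, had 56967 and 54945 normalized counts in zfs1Δ, against 59203 and 61376 in WT, and was not called (log2 fold change −0.11, limma adjusted p = 0.30).

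pqr1 was also the 1 gene of this list called in the Zfs1 IP as deposited, where 9.6% of all transcripts were called higher and 10.6% lower; with median centring and with equal totals 3 of the list were called higher and 2 lower. It had 8051, 8465 and 5894 normalized counts in the Zfs1 IP, against 2701, 1032 and 987 in the Zfs1 input, and 1171, 1593 and 749 in the GFP IP, against 1234, 858 and 801 in the GFP input. Its Zfs1 enrichment of 2.40 ± 0.77 and its excess over the GFP enrichment of 2.16 ± 0.72 were both called (log2, SE, limma adjusted p = 0.015 and 0.020). In the Zfs1 against GFP comparison 1 gene of the list, pqr1, was called as deposited, against 3 higher and 2 lower with median centring and with equal totals, where 24.2% of all transcripts were called higher and 20% lower with equal totals. In the GFP IP 4 genes of the list were called higher and 1 lower, led by vtc2, another subunit of the polyphosphate polymerase, at 1.30 and nrf1 at −1.27 (log2, limma adjusted p = 0.0038 and 0.0011), where 11.1% of all transcripts were called higher and 7.3% lower. With equal totals 1 of the list was called higher and 1 lower there. Without a mean-variance trend only 2 of all 5887 transcripts were called higher in the GFP IP and 10 lower. Most GFP IP calls of list genes, here and below, therefore depended on that trend.

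Inositol pyrophosphates signal the phosphate status of the cell and act on termination of the lncRNAs that repress pho1, pho84 and tgp1. Of 7 measured genes of their metabolism 6 could be tested in RNA-Seq, and 5 were called higher in zfs1Δ and 0 lower, with a median log2 fold change of 0.32, against 30.9% and 13.7% of all transcripts. With equal totals 4 were higher and 0 lower. The 5 higher genes included kcs1 at 0.36 and asp1 at 0.33, both inositol pyrophosphate kinases, aps1 at 0.32, a phosphatase of these compounds, and ipk1 at 0.31 (limma adjusted p = 2.5e-10, 2.6e-09, 5.6e-08 and 2.2e-08). In the Zfs1 IP, ipk1 at 2.70 and kcs1 at 2.32 were called higher (limma adjusted p = 0.0050 and 0.019), where 9.6% of all transcripts were. With median centring and with equal totals 5 of the 7 were called higher and 1 lower, beside 28.4% and 25.9% of all transcripts called higher. ipk1 and kcs1 were also called higher in the GFP IP, at 1.09 and 1.06 (limma adjusted p = 0.0066 and 0.0056), as was asp1. There 11.1% of all transcripts were called higher and 7.3% lower. Between Zfs1 and GFP as deposited 0 of the 7 genes were called by limma, where 9.86% of all transcripts were called higher and 11.3% lower. At an unadjusted p under 0.05 the count was 3 of the 7. The count of 0 depended on the scaling. In that comparison 4 of the 7 were called higher with median centring and 5 with equal totals, beside 20.3% and 24.2% of all transcripts. With equal totals ipk1, kcs1 and asp1 were no longer called higher in the GFP IP. Without a mean-variance trend only 2 transcripts in all were called higher there.

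Csk1 activates Cdks that act on RNA polymerase II. Among 8 measured genes for kinases of this group and their partner subunits, 7 were tested in zfs1Δ. Of these 3 were called higher and 1 lower, around a median of 0.00, where 30.9% and 13.7% of all transcripts were called. With median centring 3 were higher and 3 lower, and with equal totals 3 and 4. pch1 rose by 0.31, pmh1 by 0.29 and cdk9 by 0.25, and mcs6 was lower by −0.15 (log2, limma adjusted p = 8.9e-05, 8.0e-05, 1.3e-05 and 0.021). Of the 8 genes 1, lsg1, was called in the Zfs1 IP as deposited, and it was listed at 292, 712 and 623 there and at 0 in the other 13 libraries. A listed 0 can be a failed estimate in the assignment of reads to transcripts, which was not tested, so this call is not read as binding. With median centring 3 of the 8 were called higher and 1 lower in the Zfs1 IP, and with equal totals 3 and 2. Of all transcripts 28.4% were called higher and 35.3% lower there with median centring, and 25.9% and 39.5% with equal totals. In the GFP IP cdk9 and pch1 were called higher, at 1.35 and 1.22 (limma adjusted p = 2.0e-04 and 0.0014), where 11.1% of all transcripts were called higher.

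Among 15 genes for 3′ end processing, termination and nuclear RNA decay, chosen as factors that act on the repressing lncRNAs, 14 were tested in zfs1Δ. Of these 7 were called higher and 0 lower, with a median log2 fold change of 0.14, where 30.9% and 13.7% of all transcripts were called. The counts were 6 and 2 with median centring, and 4 and 3 with equal totals. The 7 higher genes included ctf1 at 0.54, dhp1 at 0.20 and dis2 at 0.18 (limma adjusted p = 5.2e-22, 9.0e-04 and 0.0039). ctf1 had 1319, 2841 and 1881 normalized counts in the Zfs1 IP, against 933, 517 and 485 in the Zfs1 input, and its enrichment exceeded that in the GFP IP by 1.95 (limma adjusted p = 0.041). rrp6, the nuclear exosome exonuclease, was lower in that comparison by −2.02 (limma adjusted p = 0.030). ssu72, a phosphatase of the RNA polymerase II tail, was called lower in the Zfs1 IP, at −2.07 (limma adjusted p = 0.027). It was the 1 call of this list in the Zfs1 IP as deposited, while 5 were called higher and 5 lower with median centring, and 5 and 6 with equal totals. Of all transcripts 28.4% were called higher and 35.3% lower there with median centring, and 25.9% and 39.5% with equal totals. Between Zfs1 and GFP the list had 1 higher and 1 lower as deposited, and 3 and 4 with median centring and with equal totals. Of all transcripts 20.3% were called higher and 26.6% lower there with median centring, and 24.2% and 20% with equal totals. In the GFP IP dhp1 and pla1 were called higher, at 0.95 and 0.91 (limma adjusted p = 0.019 for each), and with equal totals neither was called (limma adjusted p = 0.097 and 0.11). Between the inputs of the 2 strains 0 of the 39 list genes tested were called by limma, and 0 had an unadjusted p under 0.05.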

How the data were processed

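RIP-Seq was made for Zfs1-TAP and GFP-TAP cells (IP and input, 3 experiments each) and RNA-Seq for zfs1Δ and WT cells (2 experiments each). Per the methods and labels, the authors depleted rRNA, sequenced strand-specific paired reads, counted them with RSEM 1.1.19 and Bowtie 0.12.7 on a PomBase genome and annotation, and normalized with edgeR. The deposited values are a signal: normalized counts that are not whole, so no count test was run, raw depth is unknown, and tests used limma 3.58.1 (R 4.3.3) on log2(value + 1), with a mean-variance trend, the experiment as a block except between the inputs, a filter at a mean of 1 CPM of the summed values, and Benjamini-Hochberg adjustment over all tested transcripts at 0.05. The 2 tables were normalized separately and were not tested against each other. The study calls the Zfs1 IP and zfs1Δ experiments biological repeats, and the sources used here do not say so of the GFP experiments. The limma p-values rest on the spread between experiments, moderated by that of the other transcripts. With 2 experiments a group that spread is drawn mainly from the other transcripts.

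Deviations of same-numbered IP and input libraries correlated at 0.23 to 0.48 for Zfs1 and 0.098 to 0.28 for GFP, those of the inputs of both strains at 0.24 to 0.66, and those of zfs1Δ and WT at −0.07. The fits were tested on simulated data. The members and gene lists were chosen with earlier results of these data known. The text names all 5 members, up to 4 called genes with the largest change per list and comparison, the annotated neighbours within 3000 bases upstream or overlapping, and for each member the 2 transcripts with the highest correlation; 1 gene that this rule names is not reported here. Of 7018 identifiers 6640 matched RefSeq ASM294v3, from which sequences were read. Alternatives were median centring, equal totals without rRNA, a pseudocount of 10, no filter, no trend, the other use of the block, and leaving out each experiment.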

Additional observations from a re-analysis of the deposited data

Results flagged for a closer look

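pho1 was lower in the Zfs1 IP than in its input in 3 of 3 experiments. It was higher in the GFP IP than in its input in 3 of 3, a pattern whose share over all transcripts is not given. The log2 ratio was only −0.028 in Zfs1 experiment 2, and the GFP IP mean was −0.094 with equal totals without rRNA. The difference between the enrichments was −1.46 on the log2 scale and was not called as deposited (limma adjusted p = 0.19). Between the Zfs1 and the GFP enrichment, the tested difference was 2.16 for pqr1, 1.95 for ctf1 and −2.02 for rrp6 (log2, limma adjusted p = 0.020, 0.041 and 0.030). Of the neighbours, it was 5.98 for ecl3 and 2.24 for SPBC27B12.12c (log2, limma adjusted p = 2.2e-08 and 0.021). lsg1 had 292, 712 and 623 normalized counts in the 3 Zfs1 IP libraries and was listed at 0 in the other 13 libraries, so no fold is given. A listed 0 can be a failed estimate, which was not tested.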

How the results depend on the processing

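pho84 and pho1 were called lower in zfs1Δ under all 6 alternatives that allow a test; with a single experiment, which gives a value and no test, pho84 ranged from −1.66 to −1.33 and pho1 from −1.46 to −1.22. The number of transcripts called in the Zfs1 IP was 1200 as deposited, 3775 with median centring, 3877 with equal totals without rRNA, 37 to 3786 with 1 experiment left out and 4045 with median centring and without experiment 1; the members called were 0, 4, 3, 0 to 2 and 3. For the Zfs1 against GFP comparison the counts were 1256 as deposited, 2786 with median centring, 2626 with equal totals, 612 without a trend, 75 to 2050 with 1 experiment left out and 2666 with median centring and without experiment 1, and 2 members (pho7 higher, pho1 lower) were called with median centring and with equal totals. For the GFP IP they were 1081 as deposited, 614 with no filter, 12 without a trend and 228 to 754 with 1 experiment left out. Between the inputs they were 10 as deposited, 6 with median centring, 5 with equal totals and 10 to 1212 with 1 experiment left out, the highest without experiment 1, where 1 member (pho7) was called; otherwise 0 were. Paired fits: the GFP IP gave 147 calls without the replicate block and the inputs gave 58 with it; no other count moved by over 1.5 times, and the block changed no call of a member. Signs turned in uncalled values: in the GFP IP tgp1 was −0.17 and pho1 −0.094 with equal totals, and pho84 ranged from −0.41 to 0.071 with 1 experiment left out; in the Zfs1 against GFP comparison csk1 was 0.24 with equal totals, −0.74 to 0.51 with 1 experiment left out and 0.35 with median centring and without experiment 1; in zfs1Δ pho7 was −0.040 with median centring and −0.068 with equal totals, and tgp1 −0.022 with equal totals; between the inputs pho84 was −0.14 with median centring, −0.20 with equal totals and −0.31 to 0.69 with 1 experiment left out, where pho1 ranged from −0.22 to 0.14. For the named genes that are not members, 330 of the values under the alternatives kept their call and direction, 81 lost the call and 0 turned; the Zfs1 IP calls of ecl3, SPBC27B12.12c, cbp4, pqr1, ipk1, kcs1 and ssu72 were lost without experiment 2 and without experiment 3. Why these values moved was not tested. Raw depth is unknown, so no counting interval is given.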
